A study of Homo sapiens with 6 samples.

Results

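The regions described here carried H3K4me3 in both small cell lung cancer lines, H82 and H524, and were free of NeuroD1 in both. They were chosen by overlap of the deposited region lists: a H82 H3K4me3 region qualified when it was under 2000 bp wide, shared at least 1 bp with a H524 H3K4me3 region, and shared no base with a NeuroD1 region of either line. The rule selected 6309 regions, called members below, of 18208 distinct H82 H3K4me3 regions and of 61250 distinct regions in all 4 lists. Members made up 34.6% of the H82 list (exact Clopper-Pearson 95% interval 34.0% to 35.3%) and 37.1% of its 16989 regions under 2000 bp. Those shares describe the rule, since its measured values chose the members.

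H3K4me3, trimethylation of lysine on the tail of histone H3, is found at the promoters of genes that are active or ready for transcription, and its antibody signal usually flanks the nucleosome-poor stretch at a transcription start. NeuroD1 is a neurogenic transcription factor of the basic helix-loop-helix family that binds short E-box motifs in pairs with E proteins. It marks one of the neuroendocrine forms of small cell lung cancer, a lung tumour whose cells express neuronal genes. H3K4me3 regions that both lines carry without NeuroD1 thus hold a mark typical of promoters, with this factor not called on them. Whether they lie at promoters was not tested.

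H82 and H524 are established cell lines, grown in culture and untreated, with 1 library for each line and antibody. Chromatin from each was recovered with a NeuroD1 antibody (Cell Signaling) or an H3K4me3 antibody (Abcam) and sequenced. The series has 6 libraries, of which 4 gave region lists and the input library of each line was not analysed here. With 1 library per group no difference between the lines has a replicate check, so no p-value is given, and every interval below covers counting error within these lists only.

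The lists differed in length. NeuroD1 had 3854 distinct regions in H82 and 20593 in H524, while H3K4me3 had 18208 in H82 and 18595 in H524. Reads per library were unknown from the lists, so a region missing from a list was not called there and is not shown to lack the protein. Gene names, start sites and sequence are not given for the members, because no genome or annotation of hg19, the build of the lists, was used here.

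The longer NeuroD1 list did most of the selecting. Of 8448 H82 regions under 2000 bp that H524 shared, 6309 (74.7%, 73.7% to 75.6%) were free of NeuroD1. H524 NeuroD1 alone removed 1641 regions, H82 NeuroD1 alone removed 158, and NeuroD1 of both lines lay on 340. At the width limit, the 5 widest members measured 1995 bp or more and included chr17:40984653-40986650, 1998 bp wide with 3 summits. The narrowest regions that met every condition but width measured 2002 to 2007 bp, for example chr21:33764069-33766070, and the limit left out 515 such regions in all.

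Among shared H3K4me3 regions, the share free of NeuroD1 was lower in wider regions. It was 84.9% (81.2% to 88.1%) of 437 regions under 300 bp, 78.4% (76.5% to 80.3%) of 1786 regions of 500 to 749 bp, and 61.2% (57.9% to 64.3%) of 927 regions from 1500 bp up to the limit. Beyond the limit the share was 50.8% of 775 regions of 2000 bp to under 3000 bp and 38.8% of 312 regions of 3000 bp or more. Both NeuroD1 lists contributed: from the narrowest to the widest of these classes, overlap with H82 NeuroD1 went from 1.14% to 26.3% and overlap with H524 NeuroD1 from 14.6% to 54.8%. A wider region also offers more bases for an overlap, and that part of the trend was not tested.

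Within width classes, shared regions with lower authors' scores were more often free of NeuroD1. Width still varied within each class, and its part in these shares was not tested. In shared regions under 500 bp, 84.4% (82.5% to 86.2%) of those with a H82 score below its list's median were free, against 76.0% (73.3% to 78.5%) of those at or above it. By the H524 score, the shares in that class were 85.0% (82.5% to 87.3%) and 78.8% (76.8% to 80.7%). In shared regions from 1000 bp up to the limit, the shares were 74.7% (71.4% to 77.9%) below the H524 median score and 63.0% (60.8% to 65.1%) at or above it. By the H82 score they were 72.1% (66.7% to 77.0%) and 65.4% (63.4% to 67.3%), with overlapping intervals. The score is the authors' own significance value per region and is used here only to rank regions within a list. These shares rest on the overlap that chose the members and are descriptions.

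**Figure D1:**
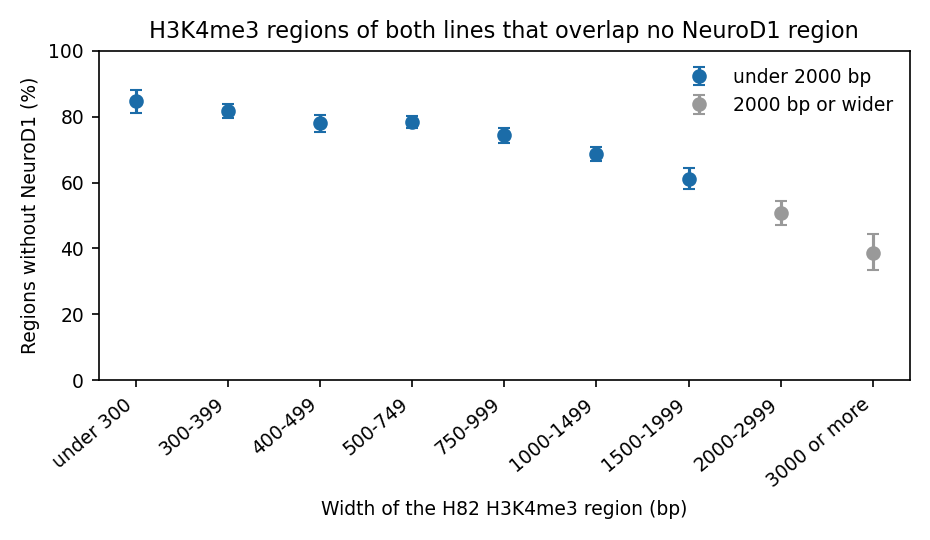
Share of H3K4me3 regions present in both lines that overlapped no NeuroD1 region of either line (vertical axis, %) by width class in H82 (horizontal axis, bp); points are shares and bars exact 95% intervals. The share was 84.9% under 300 bp and 38.8% at 3000 bp or more, and classes of 2000 bp or wider lie outside the members.

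Members were mid-sized regions of middling score. Their median width was 680 bp (quartiles 423 and 1065), against 883 bp for the 2139 regions under 2000 bp shared by both lines with NeuroD1 and 404 bp for 7582 regions under 2000 bp found in H82 alone without NeuroD1. The median score percentile in the H82 list was 57.0 for members, 69.6 for shared regions with NeuroD1 and 34.5 for regions of H82 alone. Several summits were listed for 24.1% of members (23.1% to 25.2%), close to the 22.4% of all H82 H3K4me3 regions. Shared regions with NeuroD1 had several summits in 35.2% (33.1% to 37.2%). By width, the shares for members and for shared regions with NeuroD1 were 14.6% (13.2% to 16.0%) and 19.3% (16.5% to 22.3%) from 500 bp to under 1000 bp, and 65.7% (63.4% to 67.9%) and 67.5% (64.3% to 70.5%) from 1000 bp up to the limit. Together the members covered 4975 kb, or 33.2% of the bases in the H82 H3K4me3 list.

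Members with several summits were the wide ones, at 0.515% of members under 500 bp, 14.6% from 500 bp to under 1000 bp and 65.7% from 1000 bp up to the limit. The member chr2:128567184-128569048 had 6 summits in 1865 bp in H82, and its H524 counterpart had 1 summit in 1094 bp. The member chr1:63249537-63251066 also had 6 summits, in 1530 bp, and matched an almost equal H524 region of 1574 bp with 2 summits. Nearly the whole of this second member, 1529 bp, was marked in both lines.

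As a set, members had like widths in both lines, while single members often differed. The overlapping H524 region had a median width of 719 bp and a median percentile of 64.7 in its own list. H82 was the wider of the pair in 47.2% of members. A difference of 2-fold or more was found in 16.3% of members in favour of H82 and in 21.1% in favour of H524. A median of 70.2% of a member's width was marked in H524, 21.8% of members lay wholly inside H524-marked bases, and 5.33% overlapped 2 or more H524 regions. The counterpart in H524 was itself 2000 bp or wider for 4.66% of members. The width limit applied to the H82 region only, and for 10.8% of members the H524 region also overlapped another member. H524 regions chosen by the same rule had a median width of 620 bp and a median percentile of 58.8. The lines are therefore not compared on equal terms here.

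Rank in one line said little about rank in the other. Over the 6309 members, Spearman's rho between lines was 0.09 for score and 0.11 for width. The points share the peak-calling threshold of their libraries, have many tied scores, and within 1 line score and width ran together with a rho of 0.51 in H82 and 0.50 in H524. The low value was not particular to members: rho for score was 0.13 over the 2139 shared regions with NeuroD1 and 0.16 over 1087 shared regions of 2000 bp or wider. Score rho was above 0 on 22 of 23 chromosomes, ranging from -0.06 on chromosome 5 to 0.48 on chromosome 10, where it rests on 78 members. Where at least 50% of the member was marked in H524, width rho was 0.31 and score rho 0.13 over 4347 members. That condition asks for more H524-marked bases in wider members, so it favours a higher width rho by itself.

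**Figure D2:**
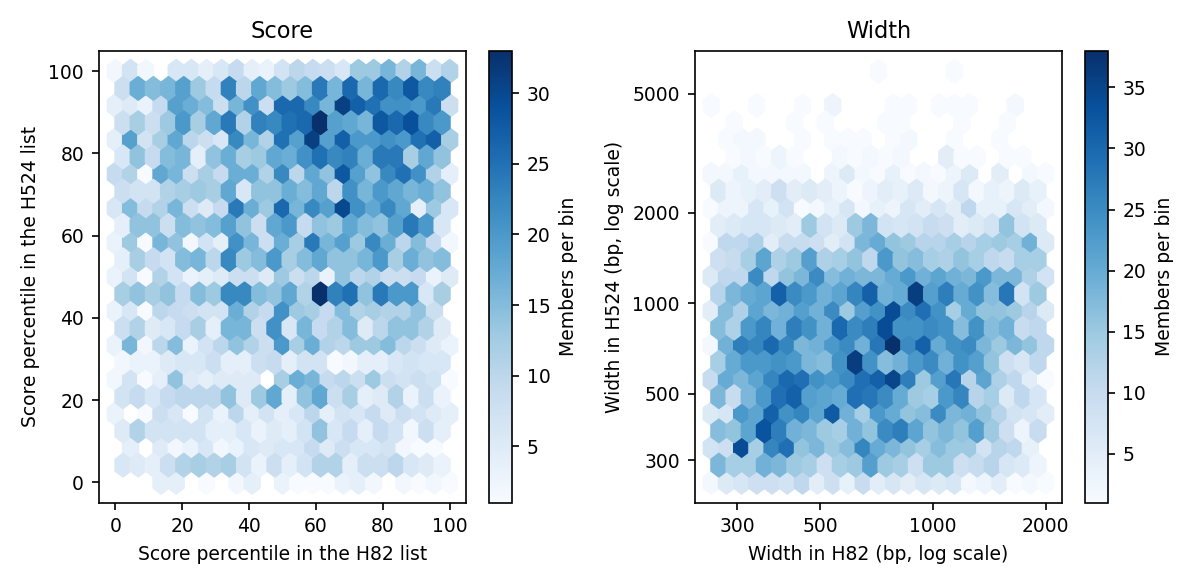
Each member in H82 (horizontal axes) against its H524 counterpart (vertical axes), as authors' score percentile within each list (left) and as width in bp on log scales (right); the shade gives the members per bin. Members fill most of both planes, with a Spearman's rho of 0.09 for score and 0.11 for width.

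The region taken as a unit bears on that value. H82 and H524 H3K4me3 regions that overlapped were also joined into loci, an analysis chosen after the values above were seen. The members then lay in 5927 loci, of which 5565 held 1 member. Over the 5442 loci free of NeuroD1 throughout, the number of bases marked in H82 and in H524 had a Spearman's rho of 0.35. With gaps of up to 1 kb closed, rho was 0.32 over 4460 loci. Both widths grow with the length of the locus they share, so these values are not a like-for-like replacement of the member-level rho.

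Joining also showed how strictly NeuroD1 was absent. The H524 counterpart reached beyond the member and overlapped NeuroD1 in 452 members (7.16%, 6.54% to 7.83%). With gaps of up to 1 kb closed, 1128 members (17.9%) sat in a locus that carried NeuroD1 somewhere, and 5181 (82.1%, 81.2% to 83.1%) sat in loci without any.

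At the ends of the lists, 723 members (11.5%) ranked in the top 25% of both lines and 185 (2.93%) in the bottom 25% of both. Among shared regions with NeuroD1 these shares were 22.2% and 1.45%. The opposite corners held 180 members (2.85%) at the top in H82 and bottom in H524, and 403 (6.39%) at the bottom in H82 and top in H524. For shared regions with NeuroD1 they held 2.81% and 3.65%. Members in the top 25% of H524 were more numerous in general, at 37.0% against 27.3% for H82, though the width limit held for H82 regions only.

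The leading members by score in both lines lay beside long region-free stretches of chromosomes. Members were ordered by the lower of their percentiles in the H82 and H524 lists. The first was chr7:61968834-61969624, which ranked 5 in H82 with a score of 86.7 and 4 in H524 with 88.9. The second, chr1:121484422-121485405, had the highest score of the H82 list, 157, and ranked 7 in H524 with 41.0. The third, chr10:42384937-42385723, ranked 6 and 8. These and 3 others of the first 10 lay within 2 Mb of the longest stretch of their chromosome without a region in any list, as did 190 of all members (3.01%). The match with the counterpart varied. In H524, 752 of the 791 bp of the chromosome 7 member and 744 of the 787 bp of the chromosome 10 member were marked. For the chromosome 1 member it was only 592 of 984 bp. The part of mappability or copy number in these scores was not tested.

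Away from such stretches, a subset named after the values were seen, the 10 leading members were 382 to 1780 bp wide in H82. The first, chr3:178864873-178865779, was 907 bp wide and ranked 58 in H82 and 151 in H524. It lay 75.1 kb from the nearest H524 NeuroD1 region and 415 kb from the nearest in H82. The next, chr19:52531068-52532847, was 1780 bp wide in H82 and 1649 bp in H524, with ranks of 188 and 295. The member chr15:40453265-40454858 ranked 328 and 245 and had 2 summits in H82 and 3 in H524. The member chr2:183579890-183581659 was 1770 bp wide in H82 and only 405 bp in H524, although it ranked 328 and 141.

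Some members were near the top of one list and near the bottom of the other. The member chr1:155112026-155113418 was 1393 bp wide with 3 summits and a rank of 128 in H82, and its H524 counterpart was 662 bp wide at percentile 4.69. The member chr1:156736002-156736903 stood at percentile 95.0 in H82 and 0.398 in H524. In the other direction, chr19:19029117-19029410 was 294 bp wide at percentile 0.978 in H82, inside a H524 region of 1095 bp with 3 summits that ranked 87. The member chr14:75231309-75231867 was 559 bp wide in H82 and lay within a H524 region of 3687 bp with 6 summits that ranked 101. These 4 were selected on their difference, and no test applies to it.

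Members lay about as far from H524 NeuroD1 as regions of H82 alone did, and farther from H82 NeuroD1. Their median distance to the nearest NeuroD1 region of H524 was 33.4 kb (31.6 to 35.6 kb). To the nearest of H82 it was 183 kb (172 to 193 kb). For regions of H82 alone without NeuroD1, the medians were 32.6 kb and 137 kb. A NeuroD1 region of H524 lay within 1 kb of 977 members (15.5%, 14.6% to 16.4%), and one of H82 within 1 kb of 245 (3.88%, 3.42% to 4.39%). Among all H82 H3K4me3 regions, 28.2% were on H524 NeuroD1 or within 1 kb of it, a count that includes the overlaps barred from members. Either line's NeuroD1 was within 1 kb of 1055 members (16.7%) and within 50 kb of 3960 (62.8%).

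The nearest pairs touched. No base separated chr17:17399914-17400213 from a H524 NeuroD1 region, and none separated chr2:113033353-113033623 from a H82 NeuroD1 region, which had H524 NeuroD1 206 bp away. The member chr4:174256456-174257728 adjoined H524 NeuroD1 and lay 391 bp from H82 NeuroD1. At the far end, a group looked up after the values were seen, members on chromosome 10 near 94 Mb and on chromosome X near 80 Mb made up the 5 farthest from H524 NeuroD1, at 4385 to 4783 kb. The member chr10:94333026-94334133 was 4500 kb from the nearest H524 NeuroD1 region and 693 kb from the nearest in H82, with another H82 H3K4me3 region 276 bp away. It had 2 summits and a percentile of 91.4 in H82 and 47.0 in H524.

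The comparison with H3K4me3 of H82 alone asks whether members keep a different distance from NeuroD1 than other NeuroD1-free regions. Both sets exclude overlap with NeuroD1 and widths of 2000 bp or more. Only members have a H524 H3K4me3 region, which can reach past the member and carry H524 NeuroD1. For 389 of the 977 members with H524 NeuroD1 within 1 kb, the nearest one lay on such a H524 region. The sets thus differ by rule at short distances. How much of the differences below comes from this was not tested. H524 NeuroD1 was within 1 kb of 15.5% of members and of 9.94% of regions of H82 alone, so members stood 5.54 percentage points higher (4.43 to 6.66, Newcombe interval). It was 7.87 points (6.09 to 9.73) under 500 bp, 4.83 (2.88 to 6.75) from 500 bp to under 1000 bp and 3.78 (0.676 to 6.53) from 1000 bp up to the limit. Within chromosomes, weighted by their members, the difference was 4.71 points (normal interval 3.56 to 5.87). It shrank to 0.543 points (0.127 to 0.965) when the H524 NeuroD1 list was cut to the length of the H82 list, and to 2.26 (1.16 to 3.37) when only regions at or above their list's median score were kept. At 10 kb the sign was the opposite: H524 NeuroD1 lay within 10 kb of 31.0% of members and 33.6% of regions of H82 alone, a difference of -2.63 points (-4.19 to -1.07). By width, that difference was 0.56 points (-1.83 to 2.98) under 500 bp, -3.82 (-6.57 to -1.08) from 500 bp to under 1000 bp and -1.94 (-6.35 to 2.28) from 1000 bp up to the limit.

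For H82 NeuroD1 within 1 kb, members and regions of H82 alone were at 3.88% and 4.04%, a difference of -0.15 points (-0.80 to 0.50). Within 10 kb, H82 NeuroD1 lay near 9.56% of members and 16.0% of regions of H82 alone, a difference of -6.40 points (-7.50 to -5.30). The difference was -5.74, -6.71 and -11.3 points in the 3 width classes from narrow to wide, and every interval excluded 0. Within chromosomes it was -6.58 points (-7.70 to -5.46). At 10 kb, members were thus below regions of H82 alone for NeuroD1 of both lines, and at 1 kb above them for NeuroD1 of H524. For H524 NeuroD1 at 10 kb, only the class from 500 bp to under 1000 bp had an interval that excluded 0. These comparisons cover regions under 2000 bp that carried no NeuroD1, and not all shared H3K4me3.

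The same comparison was made from the H524 side, where 7004 H524 regions met the rule and 7838 were found in H524 alone. H524 NeuroD1 was within 1 kb of 15.6% of the shared regions and 8.37% of those of H524 alone, a difference of 7.21 points (6.16 to 8.26). H82 NeuroD1 was within 10 kb of 11.4% and 4.70%, a difference of 6.66 points (5.78 to 7.54). H524 NeuroD1 was within 10 kb of 31.1% and 24.1%, a difference of 6.98 points (5.54 to 8.42). From this side, the shared regions had the higher share at both distances and for NeuroD1 of both lines (for H82 NeuroD1 within 1 kb, 5.28% against 1.40%). Here too only the shared regions have H3K4me3 of the other line, so the sets differ by rule.

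**Figure D3:**
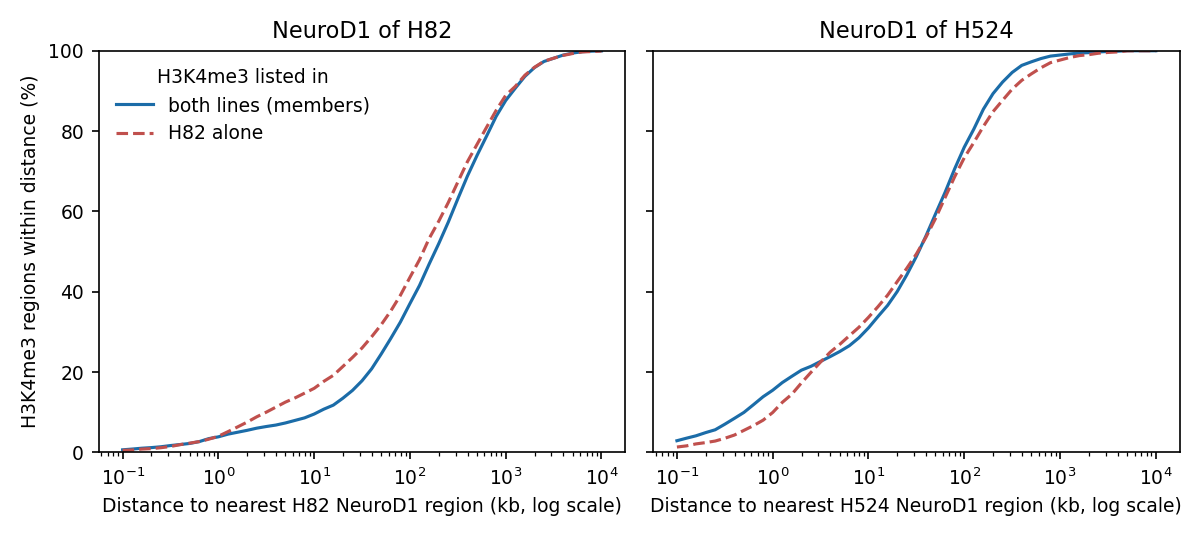
Cumulative share of H3K4me3 regions (vertical axis, %) within a given distance (horizontal axis, kb, log scale) of the nearest NeuroD1 region of H82 (left) or H524 (right), for members (solid) and for regions of H82 alone without NeuroD1 (dashed). At 10 kb from H82 NeuroD1 the curves stand at 9.56% and 16.0%, and at 1 kb from H524 NeuroD1 at 15.5% and 9.94%.

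NeuroD1 beside a member overlapped H3K4me3 of at least 1 line more often than not, for NeuroD1 of H524 and of H82. Of the 977 members with H524 NeuroD1 within 1 kb, the nearest such NeuroD1 region overlapped another H82 H3K4me3 region in 497 (50.9%, 47.7% to 54.0%) and a H524 H3K4me3 region in 632 (64.7%, 61.6% to 67.7%). In 389 of the 632 that H524 region was one that also overlapped the member, and in 243 it was another. For 230 members (23.5%) the NeuroD1 region overlapped H3K4me3 of neither line. Over the whole H524 NeuroD1 list, 15.6% of 20593 regions lay on H82 H3K4me3 and 16.0% on H524 H3K4me3, without the condition of a member nearby. Of the 245 with H82 NeuroD1 within 1 kb, it overlapped H82 H3K4me3 in 128 (52.2%) and H524 H3K4me3 in 115 (46.9%), against 29.4% and 15.9% of the whole H82 NeuroD1 list. For 84 of the 245 (34.3%) it overlapped H3K4me3 of neither line. Counting H3K4me3 of H82 on the NeuroD1 region or within 1 kb on its far side, the shares were 63.4% for H524 NeuroD1 and 71.8% for H82 NeuroD1.

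Members often had close neighbours, but no more than the list at large. Another H82 H3K4me3 region lay within 1 kb of 2990 members (47.4%, 46.2% to 48.6%), and within 1 kb of 47.3% of all H82 H3K4me3 regions. The neighbour was another member for 1413, a region of H82 alone for 1296, a NeuroD1-carrying region for 626 (9.92%) and a region of 2000 bp or wider for 155, and a member may have more than 1 kind. Neighbours stood on both sides of 477 members.

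Some adjacent members formed pairs around an unmarked gap of at most 1 kb, the limit set for a pair. Gap sizes were not measured for other adjacent regions of the list. The nearest other H82 H3K4me3 region lay a median of 1157 bp from members (lower quartile 423) and 1131 bp (444) over the whole list. There were 746 pairs within 1 kb, with a median gap of 401 bp (quartiles 316 and 572), and 494 gaps (66.2%) were under 500 bp. The shortest was 259 bp, near the smallest region width in the list, 256 bp, so shorter gaps may not be resolved in these lists. A single H524 region spanned both members in 369 pairs (49.5%, 45.8% to 53.1%), while in 303 pairs (40.6%, 37.1% to 44.2%) the middle of the gap was unmarked in H524 too. The pair chr2:220407806-220408207 and chr2:220408780-220409161 was of the spanned kind: in H82 a gap of 572 bp parted them, and in H524 1 region of 1644 bp with 3 summits, chr2:220407477-220409120, covered that gap. H524 NeuroD1 lay in the gap, 188 bp from the first member and 51 bp from the second, and so under the H524 region of both.

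The position of the gap was compared where it was open in both lines. The H524 gap was also at most 1 kb in 257 of the 303 pairs (84.8%), with a median of 509 bp. The middles of the H82 and H524 gaps were a median of 88.5 bp apart, regardless of side, and within 100 bp of each other in 147 of 257 pairs (57.2%, 50.9% to 63.3%). The signed offset had a median of 5.5 bp (quartiles -77.5 and 90). The choice of pairs bounds these offsets, since the middle of the H82 gap had to lie within the H524 gap: the largest offset possible had a median of 254.5 bp, so small offsets are no finding in themselves. No gap held a H82 NeuroD1 region (0 of 746, which allows up to 0.493% by the exact interval) and 17 (2.28%) held one of H524. The narrowest NeuroD1 regions were 275 bp (H82) and 254 bp (H524) wide, and would have to fit inside the gap without touching either member.

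**Figure D4:**
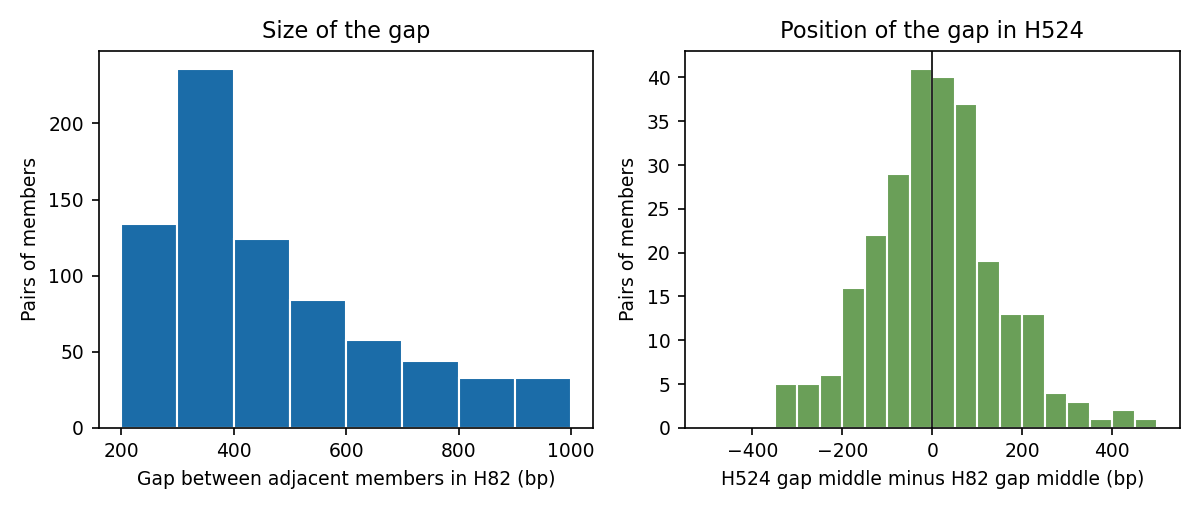
Left: number of pairs of adjacent members (vertical axis) by the size of the unmarked gap between them in H82 (horizontal axis, 100 bp bins, the last including 1000 bp). Right: number of pairs by the middle of the H524 gap minus the middle of the H82 gap (bp) for the 257 pairs open in both lines; gaps were mostly under 500 bp (494 of 746) and offsets, bounded by the choice of pairs, had a median of 5.5 bp.

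Members were spread over all 23 chromosomes with shared regions. Chromosome 1 held more than any other, 662 (10.5% of members), and also the most shared regions under 2000 bp, 868. The share of shared regions under 2000 bp that was free of NeuroD1 varied by chromosome. It was lowest on chromosome 14 (62.4% of 380), chromosome 17 (63.6% of 546) and chromosome 15 (66.9% of 363), and highest on chromosome 10 (91.8% of 85), chromosome 4 (86.6% of 201) and chromosome 7 (84.3% of 427). The exact intervals were 57.3% to 67.3% for chromosome 14 and 83.8% to 96.6% for chromosome 10. NeuroD1 overlap chose the members, so these shares describe the selection by place and were not tested.

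Chromosome 10 was apart in other ways. Only 14.2% of its 550 H82 H3K4me3 regions were members, against 45.7% of 584 on chromosome 16, because only 16.0% of its H82 regions under 2000 bp were shared with H524. Chromosome 10 held 0.774% of the H524 H3K4me3 list and 0.685% of its NeuroD1 list. Its members lay a median of 245 kb from H524 NeuroD1, while those of chromosome 14 lay 3.92 kb from it. Over the 23 chromosomes, the share free of NeuroD1 had a Spearman's rho of -0.43 with the ratio of a chromosome's share of H524 NeuroD1 to its share of H524 H3K4me3, values that come from the same lists. Chromosome 19 stood off that relation, with a ratio of 0.310 and a share of 74.1%.

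**Figure D5:**
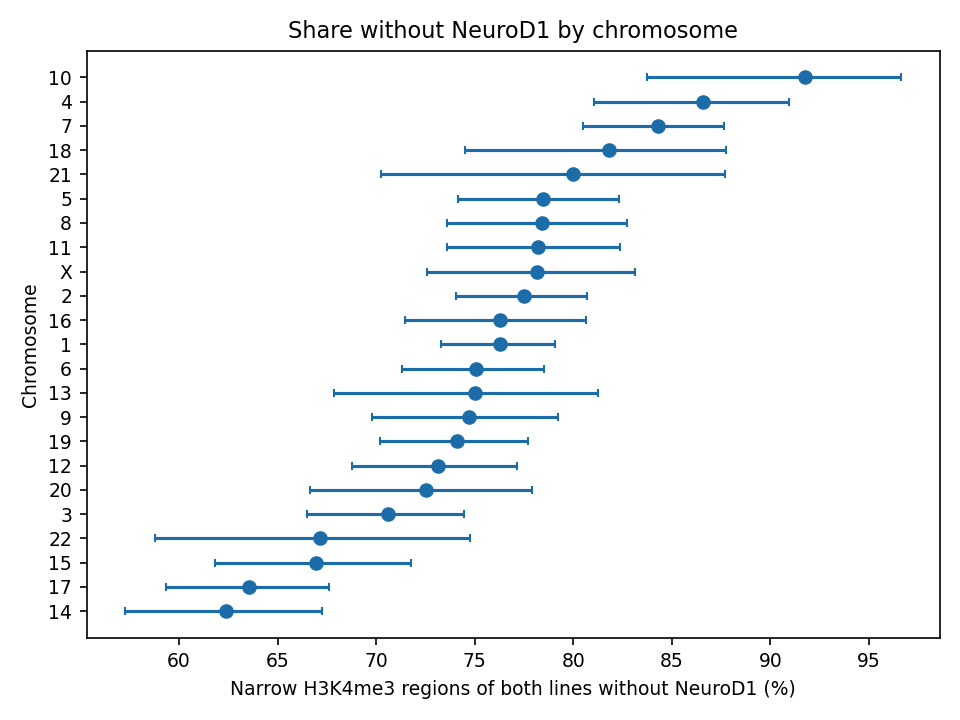
Share of H82 H3K4me3 regions under 2000 bp shared with H524 that overlapped no NeuroD1 region (horizontal axis, %; the axis does not start at 0) for each chromosome (vertical axis); points are shares, and bars exact 95% intervals. Chromosomes 14, 17 and 15 are lowest and 10, 4 and 7 highest.

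The number of members per 1 Mb window followed the density of H82 H3K4me3. Over windows with a member, the number of members and of H82 H3K4me3 regions, which include the members, had a Spearman's rho of 0.75. In all, 1846 windows held a member, with a median of 3, and 73 windows with at least 10 members held 977 of them (15.5%) and 2337 (12.8%) of all H82 H3K4me3 regions; these windows were picked for their members. Windows at 27 to 28 Mb and 28 to 29 Mb of chromosome 6 held the most, 31 and 27 members, in a part of that chromosome dense in marked regions, with 100 and 94 H82 H3K4me3 regions. Their member shares, 31% and 28.7%, were below the 34.6% of the whole list. Of those H82 regions, 2 of 100 and 7 of 94 carried NeuroD1. All windows named here were picked for members, which carry none, so the choice itself favours low counts. Chromosome 19 had 3 windows with 21 members each, at 12 to 13, 44 to 45 and 58 to 59 Mb. At 44 to 45 Mb, 21 of 36 H82 regions were members and 1 carried NeuroD1, with a median distance of 475 kb from the members to H524 NeuroD1. The window at 67 to 68 Mb of chromosome 16 had 19 members of 26 H82 regions (73.1%), although 20 H524 NeuroD1 regions lay in it.

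The longest run of consecutive H82 H3K4me3 regions that were all members was 12, at chr3:43732635-45266776, over 1534 kb. That span held 8 H524 NeuroD1 regions and 1 of H82. The next run was 10 members at chr5:127421958-130970917, over 3549 kb with 6 H524 NeuroD1 regions. A run of 9 at chr14:36296328-39583919 had 30 H524 NeuroD1 regions and 0 of H82 within its span. The rule itself keeps NeuroD1 off the members of a run.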

How the data were processed

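Each of the 4 lists holds 1 library. The submitters' processing notes list, with no role or order, the build hg19 and MACS2 2.1.1, Bowtie 1.1.2, ChIPseeker 1.18.0, Trimmomatic 0.38, Picard 1.118, R 3.5.1, SAMtools 1.9 and bcl2fastq 1.8.4. For peak calling settings and the use of the input libraries, nothing is stated in the sources used, so copy number or mappability may enter the scores. The deposited score was taken to be the authors' −log10 adjusted p-value because of its lowest values (1.304 to 1.308, against 1.301 for 0.05); no header states it.

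Entries with identical intervals, 1 per summit, were merged with their highest score. A percentile is the rank of a score within its list, with ties averaged. The H524 counterpart is the H524 region sharing the most bases. Distances count the bases between regions. Coordinates are 1-based hg19. Shares have exact Clopper-Pearson intervals, differences Newcombe intervals and medians binomial order-statistic intervals, all at 95%. Regions are not independent draws, and these lists allow no test over replicates. Overlaps were computed in Python 3.11.15 (numpy 2.4.6, pandas 2.3.3, scipy 1.17.1, matplotlib 3.10.9), checked with bedtools 2.31.1 and tested on simulated data.

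The members, comparison sets and lists were chosen with earlier results of these data known. Named regions were the 10 members with the highest lower percentile, the 5 nearest the width limit on either side, the 5 nearest NeuroD1, the 5 with most summits and the 5 differing most in percentile in each direction, of which examples are given. Planned shares at start sites, GC content, E-boxes and gene lists were left out, because a genome and annotation in hg19 were not used here.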

Additional observations from a re-analysis of the deposited data

How the results depend on the processing

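The results were recomputed under 11 other settings, and both distance comparisons also within chromosomes, a setting chosen after seeing the data. The number of members ranged from 3344 to 7769. Keeping only regions at or above their list's median score gave 3344 members, a median of 65.6 kb to H524 NeuroD1 and a neighbour within 1 kb for 27.2%. A score of at least 2 in all lists gave 42.0 kb and 41.5%. Counting NeuroD1 within 1 kb as present gave 47.0 kb and 44.1%, and leaves no distance under 1 kb to compare. Members under 1000 bp lay a median of 31.5 kb from H524 NeuroD1. Cutting the H524 NeuroD1 list to the H82 length gave 209 kb and a score rho of 0.12 (0.122). Requiring at least 50% of the H82 region to be shared gave a rho of 0.13 (0.135) and neighbours for 46.0%. With H524 regions as the base, neighbours were found for 44.5%, and the difference in H82 NeuroD1 within 10 kb turned from -6.40 to 6.66 points. In that setting the shared regions and the comparison set, the regions of H524 alone, both come from the H524 list. The H82 NeuroD1 difference within 10 kb kept its direction under the other 11 settings. The difference in H524 NeuroD1 within 1 kb kept its direction under all 11 that could give it, from 0.543 to 7.21 points. Under every setting only the shared regions have H3K4me3 of the other line, so the kept direction is no support for the 1 kb difference. The cause of each change was not tested. Leaving out chromosome 8, chromosomes X and Y, or regions within 2 Mb of the longest empty stretch changed no call. No paired analysis was possible because each group has 1 library. Alternatives that need start sites, another annotation or E-box searches were not run. The depth of the libraries is unknown, so a region that was not called may carry signal below the threshold.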
